A study of Mus musculus with 168 samples.

Results

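The comparison described here set 8 Q92 cortex libraries of 2-month mice against 16 control libraries of the same age, 24 of the 168 small RNA libraries in the series. Members were chosen by their titles: the 8 heterozygous Q92 mice on one side, and the 8 heterozygous Q20 mice with the 8 wild-type (WT) mice on the other. All were mice on the C57BL/6J background, with 4 females and 4 males in each genotype, no treatment is labelled, and the tissue was flash frozen cortex. Q92 and Q20 carry an expanded or a short CAG repeat knocked into 1 allele of Htt, the gene for huntingtin, so that every cell carries the allele under the gene's own promoter. Each knock-in genotype is 1 breeding line, and the WT mice were littermates of the Q20 line. Line codes in the library names are therefore never shared between Q92 and controls, and repeat length, line and housing cannot be told apart. The small RNA tables hold no Htt mRNA, so the genotype was not checked from them.

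Huntington's disease follows from expansion of the CAG repeat in Htt, which lengthens the polyglutamine stretch of huntingtin. MicroRNAs are short RNAs cut from hairpin precursors and loaded into Argonaute, where bases 2 to 8, the seed, pair with target mRNAs and lower their translation and stability. MicroRNAs that share a seed can act on overlapping targets, so seeds and families were used to order the results.

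Totals of the 24 libraries ranged from 4505007 to 5656051 estimated counts, of which 64.7% to 67.7% lay on the microRNAs studied, and 306 to 316 of these were detected in a library. Normalized counts below are CPM, counts scaled by the library total and the TMM factor. The tissue label was checked against brain-enriched microRNAs. Mir9-2, a neural microRNA, was the third most abundant of all, at 37614 to 46175 CPM in Q92 and 32785 to 42535 CPM in controls, and Mir128-1, a neuronal microRNA, was the sixth, at 27335 to 38012 and 25781 to 48245 CPM. Of the other members of the 15 measured, Mir128-2 was at rank 10, Mir218-2 at 46, Mir153 at 49 and Mir129-2 at 50. The rest ranked lower. Mir124a-3 was at rank 153, with 84.2 to 131 CPM in Q92 and 64.1 to 173 CPM in controls. Mir124a-2 was at rank 224, with 3.05 to 14.8 and 6.90 to 15.7 CPM. By sample connectivity, 2 of the 24 libraries stood apart, Q92 F1 (female replicate 1) and Q20 M2 (male replicate 2). The calls of fits that left them out are given below.

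The mature sequences below belong to the microRNAs that the results turn on. They are from RefSeq on GRCm38.p6, written 5′ to 3′ with the seed in capitals. All 24 microRNAs named for the comparison had a mature sequence there. Counts were made per hairpin and do not tell the arms apart, and the arm shown is the one usually described as the abundant product.
miR-10b-5p: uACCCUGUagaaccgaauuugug
miR-186-5p: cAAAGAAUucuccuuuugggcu
miR-148b-3p: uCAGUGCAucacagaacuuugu
miR-148a-3p: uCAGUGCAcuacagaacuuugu
miR-152-3p: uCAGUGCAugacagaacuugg
miR-1251-5p: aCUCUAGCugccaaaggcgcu
miR-217-5p: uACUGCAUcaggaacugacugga
miR-30c-5p: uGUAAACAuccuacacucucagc
miR-30a-5p: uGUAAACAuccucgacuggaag
miR-33-5p: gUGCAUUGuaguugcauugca
miR-181b-5p: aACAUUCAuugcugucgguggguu
miR-9-5p: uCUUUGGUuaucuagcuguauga
miR-34a-5p: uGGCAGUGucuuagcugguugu
miR-34b-5p: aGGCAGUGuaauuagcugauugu
miR-449a-5p: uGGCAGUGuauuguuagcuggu

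The miR-148 and miR-152 sequences share 1 seed, as do miR-30a and miR-30c, and miR-34a, miR-34b and miR-449a. MiR-30c-5p has the same letters from 2 genes, Mir30c-1 and Mir30c-2, as has miR-181b-5p from Mir181b-1 and Mir181b-2, and miR-9-5p comes from 3 genes. Reads of such products can be divided between the genes, so the value of each of these genes is uncertain. A last group is shown because its level set libraries apart.
miR-182-5p: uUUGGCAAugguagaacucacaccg
miR-96-5p: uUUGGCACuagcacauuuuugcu
miR-200b-3p: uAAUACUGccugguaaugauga
miR-429-3p: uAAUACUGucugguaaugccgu
miR-141-3p: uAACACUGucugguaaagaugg
miR-200a-3p: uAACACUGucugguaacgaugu

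The question was whether microRNA levels in the young cortex differ with the Q92 allele. None of 327 microRNAs passed an FDR of 0.05 (0% of those tested) by edgeR's quasi-likelihood test with sex as a covariate, while 48 had an unadjusted p under 0.05 (14.7%), 22 of them higher in Q92 (6.73%) and 26 lower (7.95%). The smallest adjusted p lay just above the threshold, at 0.0511 by edgeR. DESeq2 on the same counts called 9 (2.75%), 5 higher and 4 lower: Mir10b, Mir148b, Mir181b-2, Mir186 and Mir30c-2 were higher, and Mir1251, Mir217, Mir33 and Mir3547 lower. The median log2 fold change of all 327 was -0.01. In no microRNA did the 8 Q92 libraries lie wholly outside the range of the 16 controls (0%). The count of 0 turned to 1 or more calls in 11 of the 24 fits that left out 1 library, with 13 calls without Q92 F1 and 12 without Q92 M2.

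**Figure D1:**
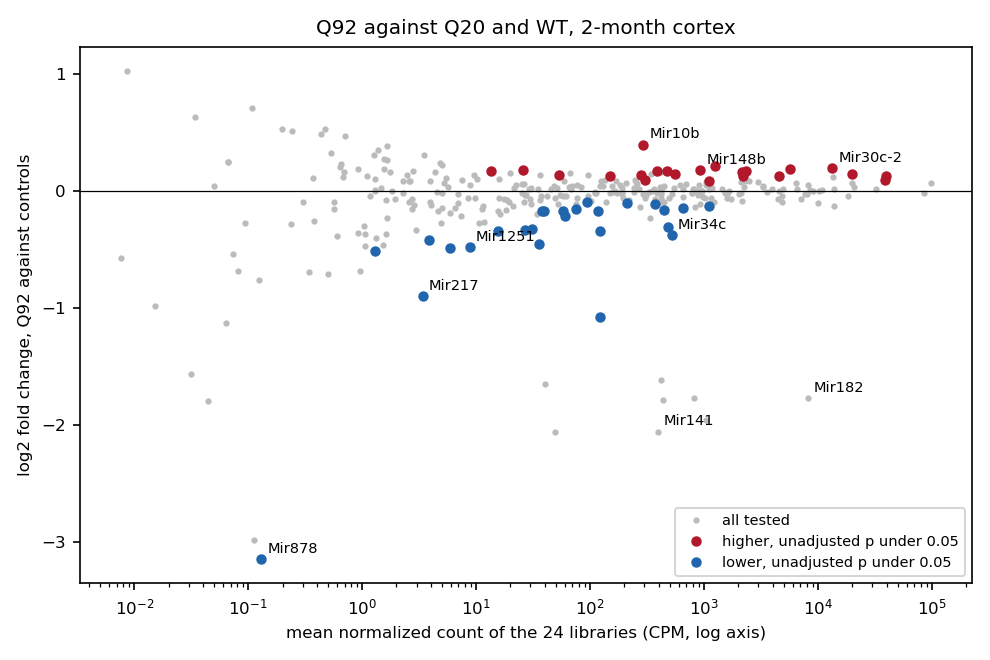
Log2 fold change of Q92 against Q20 and WT on the vertical axis against the mean normalized count of the 24 libraries on a log axis, 1 point per microRNA tested. Red points (22) and blue points (26) had an unadjusted p under 0.05, higher or lower in Q92, and most of them differed by less than 0.5 on the log2 scale.

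Mir10b had the smallest p. It lies in the Hoxd cluster at chr2:74726070-74726137 (mm10, plus strand), in introns of Hoxd3 and Hoxd4, and is known as a microRNA of posterior body regions. Its normalized counts in the 8 Q92 libraries were 279, 305, 333 and 411 in females and 336, 389, 437 and 292 in males. Controls ran from 195 to 342 CPM with a median of 254. All 8 Q92 libraries lay above the control median and 3 above every control, so the groups overlapped. The mean was 347 ± 58.3 CPM (SD, n = 8) in Q92 against 264 ± 44.5 CPM (SD, n = 16), a log2 fold change of 0.40 (SE 0.09, edgeR adjusted p = 0.0511). Mir10a, its relative in the Hoxb cluster, differed by 0.09 (SE 0.13, edgeR adjusted p = 0.82). Of the 3 Hox-linked microRNAs tested, 1 was higher at an unadjusted p under 0.05, beside 6.73% over all 327.

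Mir186 is encoded in an intron of Zranb2, a splicing factor gene, at chr3:157544279-157544349 on the plus strand. The female Q92 libraries held 5356, 5210, 4992 and 4684 CPM and the male ones 4694, 4505, 4695 and 4552 CPM. Controls lay in a narrow band from 4176 to 4584 CPM, median 4424, and 6 of the 8 Q92 libraries were above all of them. The log2 fold change was 0.13 (SE 0.03, edgeR adjusted p = 0.0511), with a mean of 4836 ± 314 CPM in Q92 (SD, n = 8) and 4409 ± 132 CPM in controls (SD, n = 16). Without Q92 F1, its highest library, it was 0.11 with an edgeR adjusted p of 0.042.

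The 3 members of the Mir148 and Mir152 family, known to target DNA methyltransferase and lipid genes, were all higher in Q92 with an unadjusted p under 0.05, with a list median of 0.17 beside -0.01 over all microRNAs. At that p, 6.73% of all 327 were higher. Mir148b lies in an intron of Copz1, a coatomer gene, at chr15:103285125-103285221. Its Q92 values were 1088, 1040, 924 and 956 CPM in females and 1011, 898, 1019 and 1066 CPM in males, against 797 to 998 CPM, median 876, in controls. Of the 8 Q92 libraries, 5 exceeded every control, and 10 of the 16 controls were below every Q92 library. Mir148b differed by 0.18 (SE 0.04, edgeR adjusted p = 0.0511), Mir148a by 0.17 (SE 0.07, edgeR adjusted p = 0.22) and Mir152, in an intron of the paralogous gene Copz2, by 0.14 (SE 0.06, edgeR adjusted p = 0.27). For Mir148a, 6 Q92 libraries were above every control, at up to 2772 CPM, while Q92 M2 at 1747 CPM was below every control.

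In the Mir30 family, broadly expressed microRNAs with 1 seed, all 5 measured genes had a positive log2 fold change, with a median of 0.07. At an unadjusted p under 0.05, 2 of the 5 were higher, beside 6.73% over all 327. Mir30c-2, in an exon of the lincRNA Gm27028 at chr1:23291701-23291784, held 13769, 16700, 15532 and 13298 CPM in Q92 females and 14877, 12211, 15359 and 14226 CPM in Q92 males. Controls ran from 10664 to 14783 CPM with a median of 12521. Thus 4 Q92 libraries lay above all controls, and Q92 M2 was the 1 Q92 library below the control median. Its log2 fold change was 0.20 (SE 0.05, edgeR adjusted p = 0.0543), while Mir30a differed by 0.09 (SE 0.04, edgeR adjusted p = 0.26). Mir30c-1, which yields the same mature letters, differed by 0.02 (SE 0.05, edgeR adjusted p = 0.90). Summed over both genes, miR-30c stood at 15304 ± 1422 CPM (SD, n = 8) in Q92 and 13470 ± 1101 CPM (SD, n = 16) in controls, a log2 ratio of 0.18.

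The lower microRNAs of smallest p were rare in cortex. Mir1251 lies in an intron of Rmst, a long noncoding RNA of neural progenitors, at chr10:92137140-92137223 on the minus strand. Its Q92 values were 10.1, 5.45, 5.41 and 6.46 CPM in females and 6.72, 7.88, 6.51 and 6.70 CPM in males, with controls from 6.35 to 11.8 CPM, median 10.1. Only Q92 F1 reached the control median, and 8 of 16 controls were above every Q92 library. The log2 fold change was -0.48 (SE 0.12, edgeR adjusted p = 0.0543), and without Q92 F1 it was -0.59 with an edgeR adjusted p of 0.0022. Leaving out the Q92 library of highest value favours a larger difference.

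Mir217, known mainly from the pancreas, is in an intron of the lincRNA Gm12082 at chr11:28763728-28763835. It had a mean of 17 estimated counts per library, so counting error limits each value. Q92 libraries held 1.03, 3.27, 2.48 and 1.33 CPM in females and 1.95, 3.53, 2.65 and 0.985 CPM in males, against 1.8 to 6.44 CPM, median 3.92, in controls. All 8 lay below the control median, and 10 controls were above every Q92 library. The log2 fold change of -0.90 was the largest of the 6 microRNAs of smallest p (SE 0.24, edgeR adjusted p = 0.0543).

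**Figure D2:**
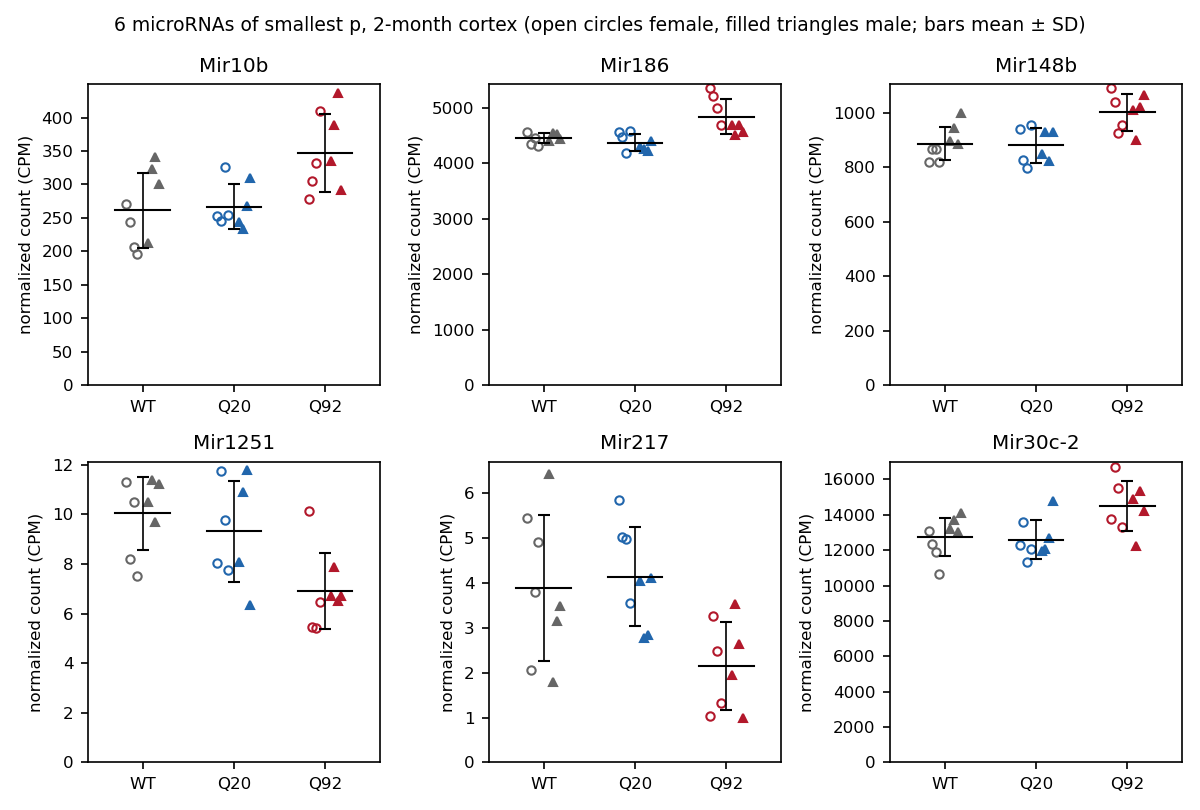
Normalized counts (CPM) of the 6 microRNAs of smallest p in each library of WT, Q20 and Q92 mice at 2 months, with open circles for females, filled triangles for males and bars for the mean ± SD of 8 libraries. Mir10b, Mir186, Mir148b and Mir30c-2 sat higher in Q92, and Mir1251 and Mir217 lower, with overlap in each panel.

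Mir33, in an intron of Srebf2, represses cholesterol export together with its host gene's sterol programme. It ran from 17.7 to 33.5 CPM in Q92 (median 22.6) and from 23.3 to 35.3 CPM in controls (median 28.7), and 6 Q92 libraries were below every control. Q92 M4 stood apart at 33.5 CPM, the next highest being 23.6 CPM. The log2 fold change was -0.33 (SE 0.10, edgeR adjusted p = 0.085), and Mir3547, in an intron of Baiap3, differed by -0.45 (SE 0.14, edgeR adjusted p = 0.088). Mir3547 was at 21.4 to 38.4 CPM in Q92, all below the control median of 39.96 CPM.

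Mir181b-2 was higher by 0.21 (SE 0.06, edgeR adjusted p = 0.088), at 1146 to 1512 CPM in Q92 against 918 to 1368 CPM, with 5 Q92 libraries above every control. Its copy Mir181b-1 went the other way at -0.10 (SE 0.05, edgeR adjusted p = 0.39). The sum of both was 5971 ± 275 CPM (SD, n = 8) in Q92 and 6100 ± 466 CPM (SD, n = 16) in controls, a log2 ratio of -0.03 that was not tested. Of the 6 members of the Mir181 family, 1 was higher at an unadjusted p under 0.05, beside 6.73% over all 327, with a median of 0.06.

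Brain-enriched microRNAs were mostly level. Of 15 measured, 2 were higher at an unadjusted p under 0.05, Mir9-2 by 0.13 (SE 0.04, edgeR adjusted p = 0.088) and Mir9-3 by 0.15 (SE 0.06, edgeR adjusted p = 0.22), and the median of the list was -0.01. Summed, the 2 genes gave 42600 ± 2995 CPM (SD, n = 8) in Q92 and 38882 ± 2313 CPM (SD, n = 16) in controls. Mir9-1 was not analysed here. Of 7 activity-regulated and synaptic microRNAs, 1 passed an unadjusted p of 0.05, Mir134, which limits dendritic spine size, at -0.17 (SE 0.07, edgeR adjusted p = 0.23). Both counts stand beside 6.73% higher and 7.95% lower over all 327. Without Q92 F1, Mir134 differed by -0.12 (edgeR adjusted p = 0.39).

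Mir541, Mir329 and Mir134 belong to the imprinted cluster on chromosome 12, expressed from the maternal allele, where 36 microRNAs were tested between chr12:109571990-109747960. In the cluster 22 had a positive and 14 a negative log2 fold change, with a median of 0.02. Mir541 was higher by 0.18 (SE 0.06, edgeR adjusted p = 0.088), at 5125 to 6814 CPM in Q92 and 4568 to 6454 CPM in controls, and Mir329 by 0.09 (SE 0.04, edgeR adjusted p = 0.22). At an unadjusted p under 0.05, 4 of the 36 were higher and 2 lower, beside 6.73% higher and 7.95% lower over all 327.

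All 10 measured microRNAs of the choroid plexus and ciliated-cell list had a negative log2 fold change, with a median of -0.28, and 3 had an unadjusted p under 0.05, all lower, beside 7.95% lower over all 327. These 3, Mir34b, Mir34c and Mir449a, share the GGCAGUG seed where a sequence is shown above, and are known from multiciliated cells. Mir34c was at 342 to 529 CPM in Q92, median 435, and at 354 to 840.98 CPM in controls, median 557. All 8 Q92 libraries were below the control median and 10 of 16 controls above every Q92 library. Mir34c differed by -0.37 (SE 0.13, edgeR adjusted p = 0.17), Mir34b, beside it on chromosome 9, by -0.33 (SE 0.11, edgeR adjusted p = 0.17) and Mir449a, in an intron of Cdc20b on chromosome 13, by -0.42 (SE 0.16, edgeR adjusted p = 0.19). Against the Q20 controls alone Mir34c differed by -0.49 and against the WT controls alone by -0.21. Mir34a, a widely expressed microRNA with the same seed that is no list member, differed by -0.03 (SE 0.06, edgeR adjusted p = 0.90). Mir204, the most abundant choroid plexus microRNA of the list, was level at -0.01 (SE 0.05, edgeR adjusted p = 0.93), and the summed list ran from 3973 to 4645 CPM in Q92 and from 3988 to 5299 CPM in controls. The part of other cells in these differences was not tested.

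The epithelial list varied more between libraries than any other list. It holds the Mir200 family (Mir200a, Mir200b, Mir200c, Mir141 and Mir429), known for holding the epithelial state, the Mir182, Mir183 and Mir96 cluster, known from sensory organs, and Mir203 and Mir205 of skin. Its summed level was 417 to 584 CPM in 7 Q92 libraries and 35946 CPM in Q92 F1. It was 1435 to 34069 CPM in Q20 and 411 to 27750 CPM in WT. Above 1000 CPM lay 1 of 8 Q92, 8 of 8 Q20 and 5 of 8 WT libraries. Of these, Q20 F4 at 1435 CPM and WT F3 at 1047 CPM lay below the widest relative gap between libraries, from 1435 to 6105 CPM. Mir182 alone reached 26712 CPM in Q92 F1 against 186 to 295 CPM in the other 7. In the other 2-month genotypes 2 of 8 Q80, 3 of 8 Q111, 5 of 8 Q140 and 3 of 8 Q175 libraries lay above 1000 CPM. At 10 months 1 of 8 Q92, 3 of 8 Q20 and 3 of 8 WT libraries lay above 1000 CPM, and none of them exceeded 1901 CPM.

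**Figure D3:**
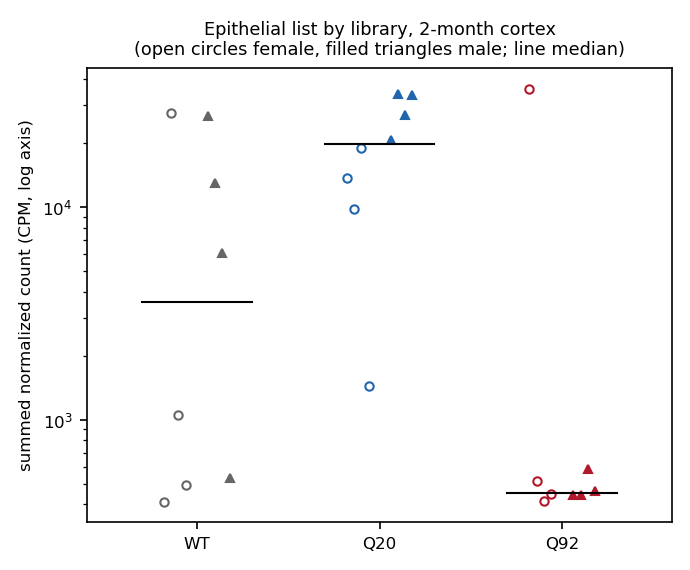
Summed normalized count (CPM, log axis) of the 10 epithelial microRNAs in each 2-month library of WT, Q20 and Q92, with open circles for females, filled triangles for males and a line at the median of 8 libraries. Of the Q92 libraries 7 sat between 417 and 584 CPM and F1 at 35946 CPM, while controls spread from 411 to 34069 CPM.

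None of the 10 had an unadjusted p under 0.05, with a list median of -1.77. Mir429 had the smallest p of the list (log2 fold change -1.77, SE 1.15, edgeR adjusted p = 0.52). Without Q92 F1 the 8 microRNAs of the Mir200 and Mir182 groups became calls, lower in Q92 by -3.99 to -7.72 on the log2 scale with edgeR adjusted p from 0.0022 to 0.0033, and they make up 8 of the 13 calls of that fit. DESeq2 with a beta prior, with outlier samples left out and outlier counts replaced after the study's methods, called 5 of them, Mir429, Mir200a, Mir200b, Mir182 and Mir183, at shrunken log2 fold changes of -0.17 to -0.23 (DESeq2 adjusted p from 0.0264 to 0.045). The other 5 calls of the edgeR fit without Q92 F1 were Mir10b, Mir148b, Mir186 and Mir30c-2, all higher, and Mir1251. Without both Q92 F1 and Q20 M2, 10 passed the FDR by edgeR, the 8 of the Mir200 and Mir182 groups, Mir1251 and, as the 1 higher, Mir10b. Leaving out Q92 F1, the only Q92 library with a high summed level, favours calls of these 8. Q20 M2 held the highest control level, at 34069 CPM. Mir203 and Mir205 were level, at 0.04 (SE 0.05, edgeR adjusted p = 0.82) and 0.03 (SE 0.15, edgeR adjusted p = 0.93).

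The named microRNAs were also fitted with the summed epithelial level. With the log2 summed epithelial level added as a covariate, no microRNA passed the FDR, the smallest adjusted p by edgeR being 0.0526. The log2 fold changes were then 0.37 for Mir10b, 0.15 for Mir186, 0.19 for Mir148b, 0.20 for Mir30c-2, -0.43 for Mir1251 and -1.03 for Mir217. Mir34c was then smaller, from -0.37 to -0.26, as was Mir3083, from 0.18 to 0.09. Mir134 was larger, from -0.17 to -0.29, as were Mir15a, from -0.16 to -0.24, and Mir27a, from -0.14 to -0.22, each with an edgeR adjusted p of 0.0526 in that fit. All 24 named microRNAs had the same direction in this fit and in every other alternative that gave them a value. They were chosen on these libraries, which the alternatives largely share, and that favours the same direction.

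The counts of the other groups stand beside 6.73% higher and 7.95% lower over all 327. Among them, 1 of 4 vascular microRNAs was higher at an unadjusted p under 0.05 (Mir145a, 0.17), with a list median of 0.08. So were 1 of 6 in the Mir99, Mir100 and Mir125 families (Mir125a, 0.14; median 0.03), 1 of 3 in the Mir26 family (Mir26a-1, 0.16; median 0.04) and 1 of 2 in the Mir221 and Mir222 cluster (Mir222, 0.13; median 0.11). All 5 members of the Mir15 and Mir16 family, which restrain the cell cycle, had a negative log2 fold change, with a median of -0.09 and 1 below an unadjusted p of 0.05. That was Mir15a, at -0.16 (SE 0.06, edgeR adjusted p = 0.18), which ran from 279 to 448 CPM in Q92 and from 404 to 515.8 CPM in controls, with 11 of 16 controls above every Q92 library. Without Q92 F1, the library at 279 CPM, Mir15a differed by -0.10 (edgeR adjusted p = 0.21). In the Mir17-92 cluster and its paralogs, known from proliferating cells, 1 of 13 was lower (Mir106b, -0.09; median 0.02).

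No member passed an unadjusted p of 0.05 among 3 oligodendrocyte microRNAs (smallest p in Mir219a-2, -0.10), 5 myeloid and microglial ones (Mir146, 0.09) and 1 erythroid one (Mir144, -0.16). The same held for 5 liver microRNAs (Mir194-2, 0.16), 5 muscle microRNAs (Mir206, 0.53, at a mean of 1 count per library), 8 of let-7 with Mir98 (Mirlet7c-1, -0.07) and 2 of the Mir29 family (Mir29a, -0.04). Of the 19 microRNAs that the study names for the cortex, 1 was higher and 2 were lower at an unadjusted p under 0.05, with a median of -0.06 and Mir10b as the member of smallest p. The study chose these mainly from older mice of the same lines, so the lines are not independent of that choice.

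The remaining named microRNAs differed by small amounts. Mir3083 (0.18) and Mir344d-1 (0.14) were higher, and Mir3099 (-0.21), Mir700 (-0.17), Mir130b (-0.16) and Mir27a (-0.14) lower, with edgeR adjusted p between 0.088 and 0.22. Mir3099 ran from 49.5 to 62.6 CPM in Q92 against a control range of 51.5 to 75.6 CPM, and 8 controls were above every Q92 library. Mir344d-1 was above the control median in 8 of 8 Q92 libraries, with 11 of 16 controls below all of them. Mir878 had 0 counts in all 8 Q92 libraries and a mean of 0.667 counts over the 24, which is under the 3 counts per library that a count of 0 allows, and no fold is given for it.

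Q20 and WT were pooled as controls, so they were compared with each other. None of 326 microRNAs passed the FDR by edgeR (0%), 14 had an unadjusted p under 0.05 (4.29%), and DESeq2 called 0. Among the 6 microRNAs of smallest p the Q20 minus WT difference was between -0.11 (Mir1251) and 0.09 (Mir217). Against Q20 alone and WT alone the Q92 differences were 0.40 and 0.43 for Mir10b, 0.16 and 0.13 for Mir186, 0.20 and 0.19 for Mir148b, 0.22 and 0.20 for Mir30c-2, -0.41 and -0.52 for Mir1251, and -0.93 and -0.84 for Mir217. None passed the FDR against either control group with 8 libraries on each side, where 43 and 37 microRNAs had an unadjusted p under 0.05. The microRNAs given here were chosen against the pooled controls, which favours the same direction against each group.

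Library names also carry an L number, which was spread over the genotypes: 3 Q92, 4 Q20 and 2 WT libraries had L1, and 4 Q92, 2 Q20 and 4 WT libraries L2. Within L1 the differences were 0.47 for Mir10b, 0.18 for Mir186, 0.23 for Mir148b, 0.16 for Mir30c-2, -0.26 for Mir1251 and -1.01 for Mir217. Within L2 they were 0.43, 0.14, 0.19, 0.26, -0.77 and -0.56 in the same order. These microRNAs were chosen on the same libraries, which favours the same direction in L1 and L2. With the L number as a covariate 5 microRNAs passed the FDR, namely Mir10b, Mir148b, Mir186, Mir30c-2 and Mir1251.

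Whether the difference depended on sex was tested by an interaction over the same 24 libraries. None of 327 passed the FDR by edgeR (0%) and 18 had an unadjusted p under 0.05 (5.5%), while DESeq2 called 8, which were the 8 microRNAs of the Mir200 and Mir182 groups. In males these 8 were lower in Q92 by -4.54 to -8.19 on the log2 scale (edgeR adjusted p from 0.0216 to 0.0237, males alone), and in females the difference lay between -0.27 and 0.12, where Q92 F1 is 1 of 4. Control males were above 1000 CPM in 7 of 8 libraries and Q92 males in 0 of 4. Control females were above 1000 CPM in 6 of 8 libraries and Q92 females in 1 of 4, that library being Q92 F1. The interaction was not tested without Q92 F1, so the 8 DESeq2 calls cannot tell a difference by sex from that 1 library. The 6 microRNAs of smallest p differed in the same direction in both sexes: Mir10b by 0.40 in females and 0.41 in males, Mir186 by 0.18 and 0.10, Mir148b by 0.21 and 0.17, Mir30c-2 by 0.27 and 0.13, Mir1251 by -0.45 and -0.49, and Mir217 by -1.16 and -0.62. Their edgeR adjusted p for the interaction was 0.849 or higher. Their choice on these same 24 libraries favours the same direction in both sexes.

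The same contrast was made at 10 months in 24 other mice of these genotypes. None of 328 microRNAs passed the FDR by edgeR (0%), 23 had an unadjusted p under 0.05 (7.01%), and DESeq2 called 0. Mir10b differed by 0.11 (SE 0.19, edgeR adjusted p = 0.85), Mir186 by 0.00 (SE 0.03, edgeR adjusted p = 0.99), Mir148b by -0.02 (SE 0.06, edgeR adjusted p = 0.96) and Mir30c-2 by 0.06 (SE 0.05, edgeR adjusted p = 0.67). Mir1251 was at -0.25 (SE 0.18, edgeR adjusted p = 0.65) and Mir217 at 0.36 (SE 0.31, edgeR adjusted p = 0.71). Of the 24 named microRNAs 14 had the same sign as at 2 months and all 24 were smaller in size, which their choice at 2 months favours.

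**Figure D4:**
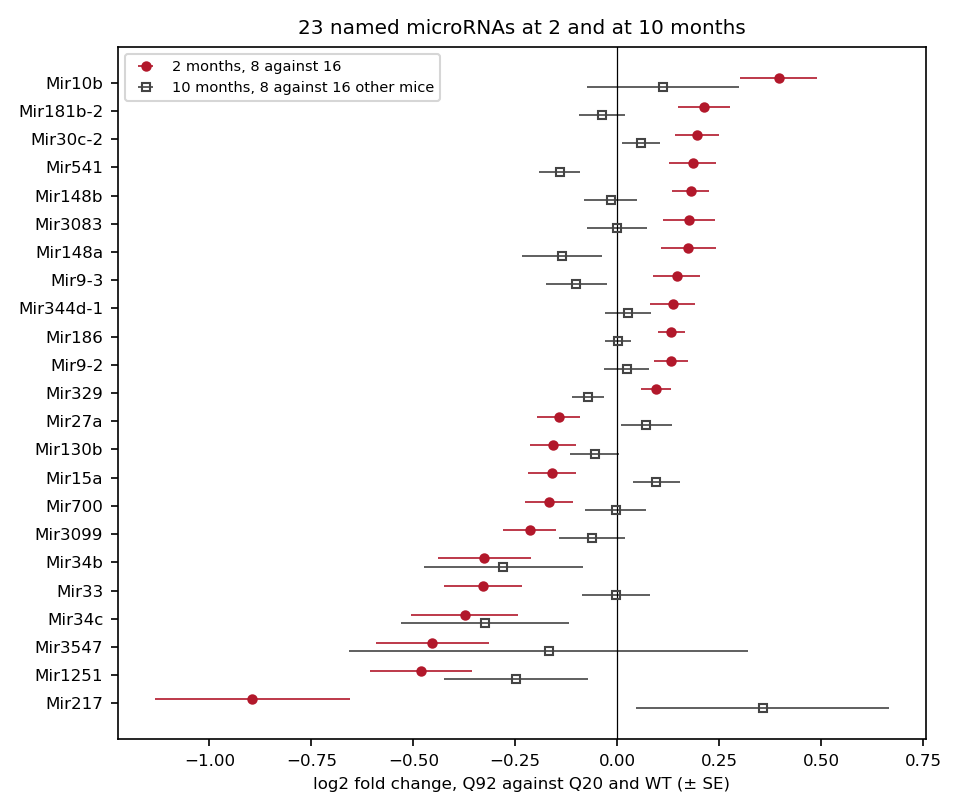
Log2 fold change ± SE of Q92 against Q20 and WT for 23 named microRNAs (all but Mir878), at 2 months in red circles and at 10 months in open squares, each from 8 against 16 libraries. At 10 months most points sit closer to 0, with Mir34b (-0.28) and Mir34c (-0.32) near their 2-month values. The 10-month Q92 means of Mir34b and Mir34c were near those of WT and below those of Q20.

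The change of the difference with age was tested in a joint fit of the 48 libraries. None of 328 passed the FDR by edgeR (0%) and 30 had an unadjusted p under 0.05 (9.15%). The smallest adjusted p was that of Mir541, whose difference was 0.31 lower at 10 months than at 2 months (edgeR adjusted p = 0.065), having gone from 0.18 to -0.14. DESeq2 called it as its 1 call. Mir34b and Mir34c were at -0.28 (SE 0.20) and -0.32 (SE 0.21) at 10 months, beside -0.33 and -0.37 at 2 months, with edgeR adjusted p of 0.65 for both.

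Q92 was last set against the neighbouring repeat lengths at 2 months, Q80 and Q111, which are heterozygous knock-in lines of the same series. Against Q80 none of 324 microRNAs passed the FDR by edgeR (0%), 45 had an unadjusted p under 0.05 (13.9%) and DESeq2 called 5. Against Q111 none of 325 passed by edgeR (0%), 50 had an unadjusted p under 0.05 (15.4%) and DESeq2 called 9. These comparisons use the same 8 Q92 libraries as the main one and are given side by side. Mir10b was higher than in Q80 by 0.42 (SE 0.10, edgeR adjusted p = 0.067) and than in Q111 by 0.46 (SE 0.14, edgeR adjusted p = 0.13). Mir30c-2 was higher by 0.28 (SE 0.06, edgeR adjusted p = 0.057) and 0.23 (SE 0.06, edgeR adjusted p = 0.10). Mir186 was higher by 0.13 and 0.15, and Mir148b by 0.18 and 0.15, with edgeR adjusted p from 0.11 to 0.19. Mir1251 was lower by -0.35 (SE 0.14, edgeR adjusted p = 0.20) and -0.65 (SE 0.14, edgeR adjusted p = 0.074), and Mir217 by -0.40 (SE 0.36, edgeR adjusted p = 0.67) and -0.83 (SE 0.30, edgeR adjusted p = 0.19). DESeq2 called Mir10b and Mir30c-2 against both lines.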

How the data were processed

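Small RNA of the cortex of Htt knock-in mice was sequenced as strand-specific single-end reads of 36 bases. After clipping, the authors aligned reads to mm10 with STAR and deposited estimated counts per Ensembl transcript without normalization. Their FPKM table was not used. Here the counts were rounded and transcripts named from the GENCODE annotation of GRCm38. Of the 480 microRNA symbols in the study's list, 329 had a transcript, and each of these with 1 or more counts over a fit's libraries was tested. Groups came from the titles. EdgeR 4.0.16 in R 4.3.3 was used with TMM scaling on the totals of all transcripts and a robust, two-sided quasi-likelihood F test, sex as a covariate, and Benjamini-Hochberg adjustment over the microRNAs tested at an FDR of 0.05. DESeq2 1.42.0 was an alternative. The library code gave the sex of 1 Q80 and 1 10-month Q20 library whose label differs. Mice are the replicates. With 4505007 to 5656051 counts, counting error limits microRNAs with few counts. In simulated data for Q92 against controls, with 325 microRNAs tested, 7 of 20 planted changes of 1.25-fold, 16 of 20 of 1.5-fold and 20 of 20 of 2-fold were recovered. They were planted only in microRNAs with a mean of 10 or more counts, and none below 1.25-fold was planted. With nothing planted, 1 of 325 was called. Named were the 12 higher and the 12 lower microRNAs of smallest p, those past the FDR by either tool, and the member of smallest p of each of 22 lists, with every Q92 value for 6. Members of these lists beside them, and the chromosome 12 cluster, were picked once values were known. The groups, lists and rules were chosen with earlier results of these data known.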

Additional observations from a re-analysis of the deposited data

Results flagged for a closer look

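In 113 groups of 8 libraries, 1 for each named microRNA and genotype that varied, 13 held a library whose gap to the next was wider than Dixon's 95% critical value allows, where chance gives about 1 in 20. Values are CPM. In Q92 F1, the library that also stood apart by connectivity, Mir429 was at 2256 (next 53.8), Mir15a at 279 (next 405), Mir134 at 77.4 (next 104) and Mir29a at 15868 (next 17529). In Q92 M2, Mir148a was at 1747 (next 2440) and Mir194-2 at 46.9 (next 68.5). Mir33 was at 33.5 in Q92 M4 (next 23.6). Among controls, Mir9-2 was at 42535 in Q20 M3 (next 38944) and at 32785 in WT F3 (next 37201), Mir194-2 at 31.9 in Q20 M3 (next 58.1), Mir329 at 263 in Q20 F3 (next 291), Mir700 at 47.2 in Q20 M1 (next 41.7) and Mir206 at 0.600 in WT M2 (next 0.214).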

How the results depend on the processing

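For Q92 against controls at 2 months, where edgeR called 0, the calls were 9 by DESeq2, 4 with filterByExpr, 5 with the L number as a covariate, 3 with all 2-month libraries in 1 fit, 5 without the sex covariate, 10 without the samples that stood apart and 16 by the outlier steps of the methods with DESeq2. They were 0 with RLE factors, with the library size alone, over all transcripts and against Q20 or WT alone. Leaving out 1 library at a time gave 0 to 13: 13 without Q92 F1, 12 without Q92 M2, 3 without Q92 M4, 7 without WT M3, 6 without WT F2, 5 without Q20 M4, 4 each without Q20 F1, Q20 F4, WT M2 and WT M4, and 1 without Q20 F3. Of fits added after seeing the data, males alone gave 8, the L2 libraries alone 2, and females alone, the L1 libraries alone and the epithelial covariate 0. With the replicate number as a block the count was 0 (55 at an unadjusted p under 0.05). Same-numbered libraries correlated at -0.88 to 0.81 and 9 of 24 correlations were over 0.1, so they share only a number. The sex interaction had 8 calls by DESeq2 and 0 otherwise. The age interaction had 1 each with the library size alone, DESeq2 and filterByExpr. Q92 against Q80 had 5 by DESeq2, 2 with filterByExpr and 13 with the L number, and against Q111 9, 1 and 4. Q20 against WT and the 10-month comparison had 0 throughout. Directions turned, each far from the threshold, for Mir219a-2 (0.018 in males, 0.00020 in L1), Mir144 (0.030 in males), Mir146 (-0.031 with the epithelial covariate), Mir206 (-0.43 in L2), Mir29a (0.022 against Q20) and Mir222 (-0.011 in L1). The cause of these changes was not tested. Low counts limit Mir217, Mir1251 and Mir878, and of the smallest changes planted in simulated data 7 of 20 were recovered.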
